A study of Mus musculus with 36 samples.

Results

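The 10 genes described here belong to the signalling system of the inhibins, activins and bone morphogenetic proteins (BMPs) in the embryonic mouse gonad. They were chosen by name, with earlier results of these data known, so counts of them beside shares over all genes are descriptions only. Inha, Inhba and Inhbb are the genes of the inhibin and activin subunits. Acvr2a and Acvr2b are genes of type II activin receptors, and Bmp4 and Bmp7 are genes of BMP ligands. Id1, Id2 and Id3 are genes that BMP signalling is known to induce. Each of the 10 has a row among the 21699 genes counted at each of 2 embryonic stages, E11.5 and E12.5. All 10 passed the filter on low counts at both stages, leaving 14217 genes in the E11.5 tests and 14348 in those of E12.5. Bulk RNA-seq had been made of gonads that keep or lack the miR-17~92 cluster of microRNAs, and the comparisons ask how its loss changes the gonads of XX and XY embryos.

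Inhibins and activins are dimers built from a shared set of chains: an alpha chain joined to a beta chain gives an inhibin, and a pair of beta chains gives an activin. Activins and BMPs bring together type I and type II receptors at the cell surface, which pass the signal to SMAD proteins. These proteins carry it into the nucleus, while inhibin occupies type II receptors without passing on the activin signal. In the fetal testis the Sertoli cells are a known source of some inhibin and activin chains. In the fetal ovary BMP2 and the activin-binding protein follistatin are known products of the supporting cells.

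The 4 genotypes at each stage, with 3 libraries each, were control and KO embryos of either sex (XX and XY). KO embryos carry Tg(CAG-cre)1Nagy and are del/del for the miR-17~92 cluster. The CAG promoter drives Cre broadly, so the deletion is not confined to a cell type of the gonad. Controls are labelled WT, and the sources used here give them no further alleles. Each library pooled 2 pairs of gonads of its genotype, per the study methods. The E11.5 libraries hold gonad and mesonephros together and the E12.5 libraries the isolated gonads, and the stages also differ in library kit, so each stage was analysed on its own and no change between stages was tested. Nothing in the labels names litters or collection days, so p-values measure the spread between these pools.

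Library totals lay between 17150620 and 34077443 counts at E11.5 and between 11877379 and 44155275 at E12.5. Xist was at 1340 CPM or more in every XX library and at 4.72 CPM or less in every XY library, and Ddx3y, on the Y chromosome, separated them the other way. CPM scales the counts of a library to a total of 1000000, here with library sizes normalized by TMM, which balances most genes between libraries. Mir17hg, the host transcript of the cluster, was at 17.6 to 44.6 CPM in E11.5 controls and 98.2 to 154 CPM in E11.5 KO libraries, and at 13.4 to 37.3 against 66.7 to 83.8 CPM at E12.5. A count over the whole host gene does not single out the deleted stretch, so it is no check of the deletion. For that stretch itself the study reports that KO gonads had no reads. Lists of cell type markers were summed per library. The Sertoli list (8 genes) was at 108 to 252 CPM in XY controls and 52.9 to 82.6 CPM in the other E11.5 libraries, and at 1482 CPM or more against 86.9 CPM or less at E12.5. The pre-granulosa list (7 genes) was at 106 to 128 CPM in E12.5 XY controls, 572 to 611 in XY KO, 716 to 948 in XX controls and 714 to 1021 in XX KO libraries. No listed marker was at 0 throughout a group. In bulk samples, fewer cells of a type and less RNA per cell cannot be told apart.

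The mature microRNAs of the cluster are shown first, because their seeds (bases 2 to 8) define the short matches that can be looked for in the 10 genes. The 6 sequences are those of RefSeq on GRCm38.p6, where they lie within chr14:115043684-115044496 on the forward strand, with seeds in capitals.
mmu-miR-17-5p: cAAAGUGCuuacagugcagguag
mmu-miR-20a-5p: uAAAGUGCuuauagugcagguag
mmu-miR-18a-5p: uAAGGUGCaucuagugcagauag
mmu-miR-19a-3p: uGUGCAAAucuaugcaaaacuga
mmu-miR-19b-3p: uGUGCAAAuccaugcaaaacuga
mmu-miR-92a-3p: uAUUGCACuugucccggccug
miR-17-5p and miR-20a-5p have the same seed, as do miR-19a-3p and miR-19b-3p, which leaves 4 families. The match searched for the miR-17 family was GCACTTT. For the miR-18 family it was GCACCTT, for the miR-19 family TTTGCAC, and for miR-92a it was GTGCAAT. The search covered the transcript strand of the longest annotated 3′ UTR of each gene.

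Of the 10 genes, 3 held a match, and in each case it was a single match to the miR-19 family. They are shown on the transcript strand with the match in capitals, from the GRCm38 annotation GENCODE M21. The Inhba match is at chr13:16028227-16028233 (forward strand), the Inhbb match at chr1:119415931-119415937 (reverse strand) and the Id2 match at chr12:25094526-25094533 (reverse strand), where an A follows the match and makes it 8 bases long.
Inhba: cgtttactaTTTGCACtacga
Inhbb: ctttcaatgTTTGCACtgatc
Id2: tctttttctTTTGCACAagaag
Inha, Acvr2a, Acvr2b, Bmp4, Bmp7, Id1 and Id3 held none of the 4 matches. A match to any of the 4 families was present in 33.0% of the 14028 tested genes with a 3′ UTR, and a miR-19 match in 13%. Among tested genes with a 3′ UTR within 25% of the same length, a miR-19 match was present in 31.1% for the 4492 bases of Inhba, 15.2% for the 1857 bases of Inhbb and 7.4% for the 785 bases of Id2. A match is a description of the sequence and shows neither binding nor regulation. In XY KO gonads Inhbb was lower than in XY controls at both stages, Inhba was lower at E12.5, and Id2 was higher at both stages. The values are given below, and the part of a match in these levels was not tested.

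At E11.5, when the gonads of both sexes still look alike, 2 of the 3 chains, Inha and Inhbb, separated XY KO from XY control gonads. Both were lower and Id2 was higher in XY KO gonads, so that 3 of the 10 genes were called (edgeR quasi-likelihood test, FDR under 0.05 over all genes tested), where 12.7% of all genes were. Control and KO libraries of XY gonads did not overlap for 5 of the 10 genes, against 28.5% of all genes. None of the 10 was called between XX and XY control gonads, where 0.886% of all genes were (2 of the 10 had an unadjusted p under 0.05, and DESeq2 called 0). The libraries of these controls did not overlap for 2 of the 10 genes, Acvr2a and Id1, against 17.4% of all genes. In XX KO against XX control gonads edgeR also called 0 of the 10, against 3.27% of all genes (3 of the 10 had an unadjusted p under 0.05, and DESeq2 called 1, Inhbb), and libraries did not overlap for 4 of the 10, against 24.6%. The test of whether the deletion acted differently in the 2 sexes called 0 of the 10, against 0.0352% of all genes (3 of the 10 had an unadjusted p under 0.05, and DESeq2 called 1, Inhbb again). The median log2 fold change of the 10 genes was -0.11 between the controls, -0.08 in XY KO against XY control and -0.04 in XX KO against XX control gonads, where all genes tested had medians of -0.01, -0.03 and 0.00.

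The shares over all genes at E11.5 moved with single libraries. Between the controls 126 genes were called, 2495 without XY control replicate 2, 61 without XY control replicate 3 and 56 to 73 without an XX control replicate. In the interaction 5 were called, 228 without XY control replicate 2, 40 without XY control replicate 1, and 2 without XX control replicate 2, XX control replicate 3 or XX KO replicate 3. For XY KO against XY control the 1804 genes became 814 to 975 when replicate 1 of XY control or replicates 1 or 2 of XY KO were left out, and 2891 when it was replicate 2 of XY control. For XX KO against XX control the 465 genes became 142 to 197 on leaving out any XX control library or replicate 3 of XX KO, and 289 on leaving out replicate 1 of XX KO.

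Inha, the gene of the alpha chain (ENSMUSG00000032968, chr1:75507077-75510366, forward strand), was at 30.04, 26.3 and 30.8 CPM in the E11.5 XY control libraries. It was at 16.3, 15.6 and 16.7 CPM in XY KO libraries, all below the lowest XY control. The difference was 1.79-fold (log2 fold change -0.84, SE 0.13, FDR 0.000873, edgeR quasi-likelihood test). XX control libraries were at 28.1, 20.6 and 23.7 CPM and XX KO libraries at 18.5, 21.4 and 20.9 CPM. These XX groups overlapped, and their difference of -0.25 on the log2 scale (95% interval -0.51 to 0.02) was not called, with an FDR of 0.358.

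Inhbb, the gene of the beta B chain (ENSMUSG00000037035, chr1:119415465-119422248, reverse strand), showed the largest difference of the 10 genes at this stage. XY control libraries were at 72.8, 85.0 and 107 CPM and XY KO libraries at 36.5, 31.2 and 30.9 CPM. The groups were far apart, with a 2.68-fold lower level in XY KO gonads (log2 fold change -1.42, SE 0.17, FDR 0.000192, edgeR quasi-likelihood test). XX control libraries stood at 82.0, 58.2 and 63.3 CPM and XX KO libraries at 38.1, 55.3 and 44.9 CPM. These did not overlap either, but the difference of -0.55 (SE 0.17, 95% interval -0.91 to -0.20) had an FDR of 0.0902 in edgeR and was not called. It was called by DESeq2 and when XX KO replicate 2 was left out. The effect in XY minus that in XX gonads was -0.87 on the log2 scale for Inhbb (95% interval -1.37 to -0.37, FDR 0.203) and -0.59 for Inha (95% interval -0.96 to -0.21, FDR 0.236), neither called by edgeR.

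Inhba, the gene of the beta A chain (ENSMUSG00000041324, chr13:16011851-16031621, forward strand), was low at E11.5, between 2.46 and 7.06 CPM over the 12 libraries. The 4 genotypes overlapped. The difference of XY KO from XY control gonads was -0.21 on the log2 scale, with a 95% interval from -0.93 to 0.50 that leaves room for a change as large as that of Inha.

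Beside the lower Inha and Inhbb in E11.5 XY KO gonads, the markers of gonadal somatic cells (6 genes) summed to 1017 to 1216 CPM in XY KO and 1238 to 1319 CPM in XY control libraries. In the XX groups this list overlapped, at 1165 to 1451 CPM in KO and 1299 to 1444 CPM in control libraries. The sums of the Sertoli, pre-granulosa and fetal Leydig lists were also lower in each XY KO than in each XY control library. Sertoli sums were at 60.8 to 82.6 against 108 to 252 CPM and pre-granulosa sums at 226 to 247 against 256 to 305 CPM. Fetal Leydig sums were at 13.4 to 18.1 against 25.5 to 32.2 CPM. Single genes did not all follow these sums. Of the 7 pre-granulosa genes 2 were called higher and 2 lower, with a median log2 fold change of -0.02. Of the 8 Sertoli genes 1 was called higher and 6 lower, and of the 6 gonadal somatic genes 0 higher and 2 lower. Of 3 fetal Leydig genes tested, 0 were called higher and 1 lower. In the XX groups the fetal Leydig list was at 13.5 to 18.3 CPM in KO and 22.9 to 31.2 CPM in control libraries, and the pre-granulosa list at 280 to 333 CPM and 392.4 to 403 CPM. The mesonephric list (8 genes) was at 171 to 189 CPM in XY KO and 170 to 270 CPM in XY control libraries. The part of cell composition in the lower levels was not tested.

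At E12.5 all 3 chains were higher in XY control gonads than in the other 3 genotypes. XX control gonads had lower Inha, Inhba and Inhbb than XY control gonads, which makes 3 of the 10 genes, all of them lower, where 23.8% of all genes were called and 12.4% were lower. In XY KO gonads the same chains were lower than in XY controls, with Bmp7 also lower and Id2 higher. That is 5 of the 10 genes, against 20.6% of all genes. In each of these comparisons the libraries did not overlap for 6 of the 10 genes, against 36.6% and 39.1% of all genes. In XX KO gonads only Id2 was called against XX controls, 1 of the 10, against 5.26% of all genes, and libraries did not overlap for 3 of the 10, Id1, Id2 and Id3, against 23.5%. The median log2 fold change of the 10 genes was -0.25, -0.40 and 0.34 in these comparisons, against 0.01, -0.01 and 0.00 over all genes tested. For XX KO against XX control the 755 genes called in all depended on single libraries. They became 35 when the XX control replicate 1 was left out and 83 when it was replicate 2. They became 117 and 1670 on leaving out replicates 3 and 2 of XX KO, and 491 on leaving out replicate 2 of XY KO. The first comparison shares XY control libraries with the second and XX control libraries with the last.

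The E12.5 XY control libraries held Inha at 227, 105 and 128 CPM. XX control libraries held it at 35.6, 32.1 and 38.7 CPM and XY KO libraries at 20.3, 26.2 and 27.7 CPM, so that every XY control library was above every other library. XX KO libraries were at 43.4, 30.6 and 44.6 CPM and overlapped the XX controls. Inha was 4.33-fold lower in XX than in XY controls (log2 fold change -2.11, SE 0.25, FDR 1.95e-05) and 6.19-fold lower in XY KO than in XY control gonads (log2 fold change -2.63, SE 0.25, FDR 3.73e-06, edgeR quasi-likelihood test). The XX KO difference of 0.16 from XX controls, with a 95% interval from -0.36 to 0.67, was not called (FDR 0.722). XY KO libraries were all below the lowest XX control library, by -0.52 on the log2 scale (95% interval -1.04 to 0.01), which was not called (FDR 0.258).

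Inhba had the widest range. It was at 25.9, 12.1 and 22.8 CPM in XY controls, and at 0.773, 0.858 and 0.625 CPM in XX controls, which is 10 to 17 counts in a library. XY KO libraries were between them at 4.50, 5.26 and 3.93 CPM, overlapping neither control. The level was 26.5-fold lower in XX than in XY controls (log2 fold change -4.73, SE 0.67, FDR 0.00011) and 4.45-fold lower in XY KO than in XY control gonads (log2 fold change -2.15, SE 0.55, FDR 0.0126, edgeR quasi-likelihood test). Without XY control replicate 1 the FDR of the latter was 0.051, and without XY KO replicate 1 it was 0.0519. With any library left out the log2 fold change lay between -2.42 and -1.94. The 3 XX KO libraries were far apart, at 0.493, 6.54 and 4.43 CPM, the first below all XX controls and the others above them. Their difference from XX controls, 2.34 on the log2 scale (SE 0.66), was not called by edgeR (FDR 0.0555). DESeq2 called it, as did edgeR when XX KO replicate 1, the low library, was left out.

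Beside these Inhba levels, the mesonephric marker list (8 genes) summed to 66.0 to 142 CPM in XX KO and 42.7 to 53.5 CPM in XX control libraries, and at 37.2 to 105 CPM in XY KO and 31.4 to 38.0 CPM in XY control libraries. Its part in the Inhba levels was not tested.

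Inhbb stood at 228, 271 and 185 CPM in E12.5 XY controls. The 9 libraries of the other genotypes lay between 91.0 and 125 CPM, with XX controls at 121, 98.7 and 99.7, XY KO at 91.0, 125 and 124, and XX KO at 119, 109 and 121 CPM. The 3 lower groups overlapped each other and none reached the XY controls. Inhbb was 2.14-fold lower in XX than in XY controls (log2 fold change -1.10, SE 0.16, FDR 0.000121) and 2.01-fold lower in XY KO than in XY control gonads (log2 fold change -1.01, SE 0.16, FDR 0.000314, edgeR quasi-likelihood test). The XX KO difference from XX controls was 0.12 (95% interval -0.21 to 0.46).

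**Figure D1:**
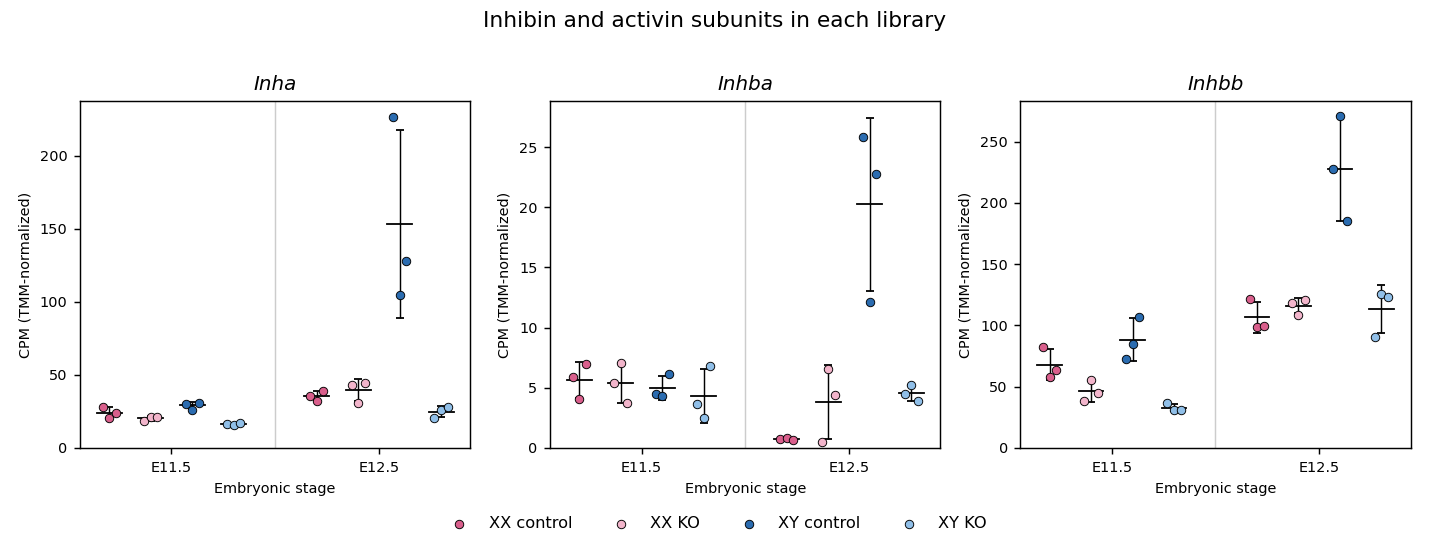
Levels of Inha, Inhba and Inhbb in every library, in CPM with TMM-normalized library sizes, by stage and genotype; points are libraries, horizontal lines means and bars SD (n = 3). At E12.5 the 3 XY control libraries lie above all 9 others for each gene, and at E11.5 the XY KO libraries of Inha and Inhbb lie below both controls.

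The effect of the deletion on the chains differed between XY and XX gonads at E12.5. Its effect in XY minus that in XX gonads was -2.79 on the log2 scale for Inha (SE 0.35, FDR 7.69e-05), -4.50 for Inhba (SE 0.86, FDR 0.00274) and -1.13 for Inhbb (SE 0.22, FDR 0.00316, edgeR quasi-likelihood test of the interaction). These were the 3 of 10 genes called in this test, where 12.9% of all genes were. For Inhba the value joined a difference of -2.15 in XY gonads to one of 2.34 in XX gonads. That XX difference was not called (FDR 0.0555, edgeR quasi-likelihood test) and starts from XX controls at 10 to 17 counts in a library. For Inha and Inhbb the XX differences were 0.16 and 0.12. Placed on the line from the mean log2 level of XY controls (0%) to that of XX controls (100%), XY KO gonads lay at 126% for Inha, 92.7% for Inhbb and 45.5% for Inhba. The Sertoli list summed to at least 1482 CPM in XY controls and at most 86.9 CPM in the other libraries, and all 8 of its genes were lower in XX controls and in XY KO gonads than in XY controls. The fetal Leydig list (5 genes) was at 822 to 1767 CPM in XY controls and 31.3 to 53.9 CPM in all other libraries. The part of these cell types in the levels of the chains was not tested.

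Levels of different genes can be compared only per length, so counts were scaled to CPM per kb of exon in the GRCm38 annotation. At E11.5 Inha and Inhbb were close to each other in XY controls, with means of 19.7 and 20.8 CPM per kb, while Inhba was at 0.779. In XY KO gonads Inha was at 11 and Inhbb at 7.72 CPM per kb, and the Inhbb level per Inha level was 0.702 ± 0.0667 against 1.06 ± 0.193 in XY controls (SD, n = 3). At E12.5 the alpha chain made up 63.2% ± 10.4 of the summed per-length level of the 3 chains in XY controls and 38.0% ± 0.957 in XY KO gonads, with no overlap of libraries (52.1 to 72.8% against 37.0 to 38.8%). XX controls were at 48.9% ± 3.53 and XX KO gonads at 48.7% ± 4.21. Inhba was a small part of the beta chains everywhere, at 5.82% ± 2.56 in XY controls, 2.66% ± 0.56 in XY KO, 2.17% ± 1.80 in XX KO and 0.471% ± 0.0905 in XX control gonads. For such ratios 3 libraries against 3 cannot give an exact permutation p under 0.1, and none was tested.

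**Figure D2:**
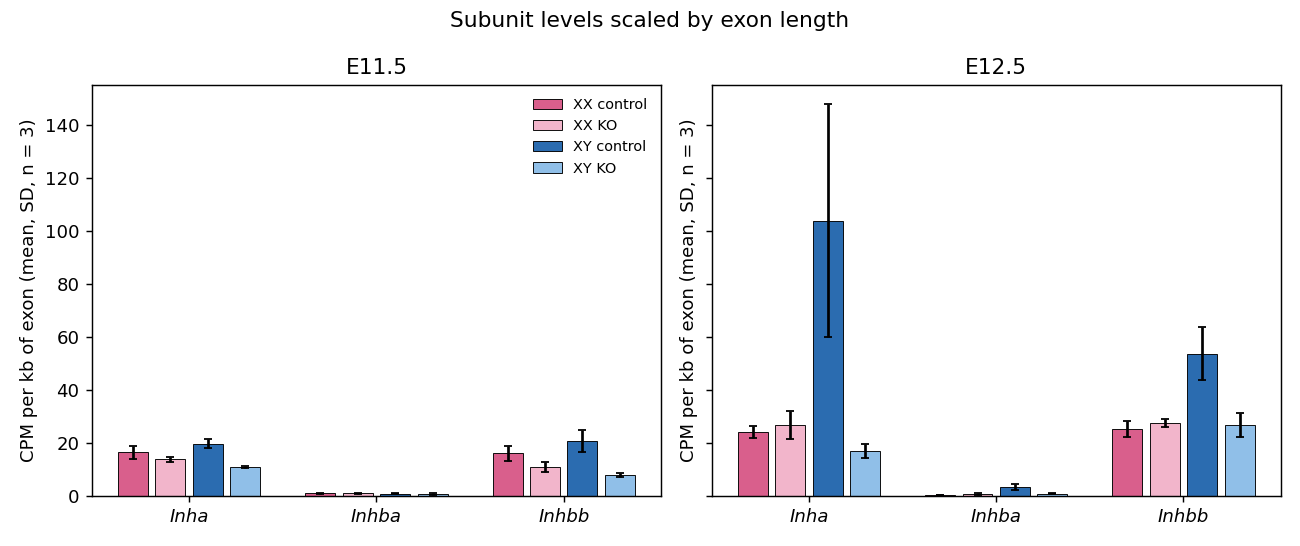
Mean level of the 3 subunit genes per kb of exon, with SD (n = 3), at E11.5 and E12.5 on the same axis. Inha and Inhbb are of like height in E11.5 controls, Inhbb is the lower of them in E11.5 KO gonads, Inha is the higher of them in E12.5 XY controls, and Inhba is the lowest in every group.

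The genes whose log2 CPM followed Inha most closely over the 12 libraries of E11.5 were 2200002D01Rik (Pearson r 0.959), Inhbb (0.957), Etnk2 (0.953), Stim1 (0.951) and Jag2 (0.946). For Inhbb at E11.5 they were Etnk2 (0.970), Stim1 (0.962), Aldh3b1 (0.959), Inha (0.957) and Rhox8 (0.949). At E12.5 they were Il4ra (0.986), Susd3 (0.981), Fdxr (0.979), Reep2 (0.977) and Alas1 (0.975) for Inha, and Trim47 (0.973), Efhd2 (0.969), Tinagl1 (0.968), Insl3 (0.966) and Aurkb (0.966) for Inhbb. Rank correlations (Spearman) of the same genes were lower for Inhbb at E12.5, from 0.743 for Insl3 to 0.881 for Aurkb. They were 0.909 to 0.979 for Inha at E12.5 and 0.930 to 0.972 for both genes at E11.5. The 12 points are 3 libraries of each of 4 genotypes and share those genotypes and their depth, so r describes these libraries only.

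The type II activin receptors, which bind activins and some BMPs, showed no called difference at either stage. Acvr2a (ENSMUSG00000052155, chr2:48814109-48903269, forward strand) was at 52.1, 55.1 and 52.8 CPM in E11.5 XY controls and at 65.2, 65.2 and 62.5 CPM in XY KO libraries. The groups did not overlap, but the difference of 0.27 (95% interval 0.08 to 0.46) had an FDR of 0.0572 and was not called. DESeq2 called it, as did edgeR without XY control replicate 2 or without XX KO replicate 3. At E12.5 XY KO libraries were at 67.1, 64.3 and 63.8 CPM and XY controls at 44.9, 57.1 and 57.9 CPM, again without overlap and without a call (log2 fold change 0.29, FDR 0.305). XX KO libraries ranged from 34.8 to 65.0 CPM at E12.5. Exons of Acvr2a share 446 bases with Orc4 on the other strand. The strand setting of the counting is not given in the sources used here, so these counts may hold reads of that gene.

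Acvr2b (ENSMUSG00000061393, chr9:119402118-119434995, forward strand) was at 20.4 to 35.0 CPM over the E11.5 libraries and at 11.4 to 24.2 CPM over the E12.5 libraries. Of its 5 differences at each stage none was called by edgeR, none had an unadjusted p under 0.05 and none was called under any alternative. XY KO gonads differed from XY controls by -0.26 (95% interval -0.56 to 0.04) at E11.5 and by -0.33 (95% interval -0.83 to 0.17) at E12.5.

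Of the BMP ligands, Bmp7 was lower in E12.5 XY KO gonads. Bmp7 (ENSMUSG00000008999, chr2:172868012-172940321, reverse strand) was at 48.8, 51.2 and 40.4 CPM in E12.5 XY controls and at 25.8, 23.4 and 35.3 CPM in XY KO libraries, each below each control. It was 1.66-fold lower (log2 fold change -0.73, SE 0.17, FDR 0.00759, edgeR quasi-likelihood test). XX control libraries, at 31.6, 39.5 and 36.8 CPM, lay below the XY controls but were not called (log2 fold change -0.38, FDR 0.134). XX KO libraries overlapped XX controls, at 31.8, 29.8 and 40.5 CPM. At E11.5 the difference of XY KO from XY control gonads was -0.42 (95% interval -0.81 to -0.02, FDR 0.149), and libraries overlapped because XY control replicate 1, at 40.3 CPM, was lower than the other two controls, at 66.2 and 60.7 CPM. Without that replicate the difference was called.

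Bmp4 (ENSMUSG00000021835, chr14:46383520-46390669, reverse strand) was at 36.2 to 72.6 CPM in the E11.5 libraries and at 3.68 to 12 CPM in the E12.5 libraries. The stages differ in age, tissue and library kit, and no change between them was tested. At E11.5 XY KO libraries, at 70.5, 60.8 and 59.0 CPM, were all above the XY controls at 51.3, 50.4 and 43.7 CPM. That difference of 0.39 had an FDR of 0.151 and was not called. XX KO libraries, at 72.6, 40.0 and 54.7 CPM, spread widely and overlapped the XX controls at 48.5, 40.1 and 36.2 CPM. At E12.5 XX controls, at 6.08, 3.68 and 6.88 CPM, lay below the XY controls at 11.6, 9.02 and 10.6 CPM. The difference of -0.91 (SE 0.32) missed the threshold with an FDR of 0.0509 and was called in 9 of the 18 alternatives, DESeq2 among them. Exons of Bmp4 share 89 bases with Gm15217 on the other strand, which the strand setting leaves uncertain.

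Id2 was the ID gene that was called. ID proteins bind basic helix-loop-helix transcription factors and keep them from DNA, and their genes are common readouts of BMP signalling. Id2 (ENSMUSG00000020644, chr12:25093799-25097140, reverse strand) was at 140, 137 and 138 CPM in E11.5 XY controls and at 177, 158 and 177 CPM in XY KO libraries. All XY KO libraries were above all controls, by 1.24-fold (log2 fold change 0.30, SE 0.08, FDR 0.0249, edgeR quasi-likelihood test). XX KO libraries, at 164, 173 and 155 CPM, also lay above XX controls at 134, 148 and 144 CPM, but that difference of 0.21 had an FDR of 0.215. The XY difference was not called when XY control replicate 1 (FDR 0.0614), XY control replicate 3 (0.0586), XY KO replicate 1 (0.0946) or XY KO replicate 3 (0.0585) was left out, nor when only the 6 libraries compared were fitted (0.0908).

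At E12.5 Id2 was higher in KO gonads of both sexes. XX controls were at 78.6, 85.1 and 103 CPM and XX KO libraries at 161, 134 and 147 CPM, and XY controls were at 83.1, 82.4 and 106 CPM and XY KO libraries at 138, 126 and 113 CPM. In each sex the KO libraries lay above the controls, while XX and XY controls overlapped. The difference was 1.65-fold in XX gonads (log2 fold change 0.73, SE 0.14, FDR 0.0135) and 1.39-fold in XY gonads (log2 fold change 0.47, SE 0.14, FDR 0.0275, edgeR quasi-likelihood test). Its size in XY minus that in XX gonads was -0.25, with a 95% interval from -0.68 to 0.17. Beside the XX difference, the germ cell list (6 genes) summed to 322 to 761 CPM in XX KO and 781 to 1470 CPM in XX control libraries, and the erythroid list (6 genes) to 861 to 1580 CPM and 1598 to 2701 CPM. The mesonephric list was higher in XX KO libraries, as given above for Inhba. Beside the XY differences of Id2 and Bmp7, the germ cell list summed to 626 to 770 CPM in XY KO and 821 to 1124 CPM in XY control libraries. The endothelial list (6 genes) summed to 702 to 787 against 515 to 661 CPM, and the macrophage list (6 genes) to 57.8 to 59.5 against 36 to 42.8 CPM. The part of these lists in the Id2 and Bmp7 levels was not tested. The XX call was lost without XX control replicate 1 (FDR 0.0716) or XX control replicate 2 (0.0726). The XY call was lost without XY control replicate 1 (0.104), XY control replicate 2 (0.122), XY KO replicate 1 (0.12) or XY KO replicate 2 (0.0782).

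Id1 (ENSMUSG00000042745, chr2:152736251-152737410, forward strand) and Id3 (ENSMUSG00000007872, chr4:136143497-136145755, forward strand) had no called difference. At E12.5 Id1 was at 81.0, 59.0 and 80.2 CPM in XX KO and at 50.6, 44 and 55.2 CPM in XX control libraries. These groups did not overlap, and the difference of 0.56 (95% interval 0.11 to 1.00) had an FDR of 0.129. Id3 was at 222, 171 and 230 CPM in XX KO and at 147, 119 and 167 CPM in XX control libraries, also without overlap, with a difference of 0.52 (95% interval 0.04 to 1.01) and an FDR of 0.183. In XY gonads the KO libraries overlapped the controls for both genes, and the differences were -0.13 for Id1 and -0.28 for Id3. The effect in XY minus that in XX gonads was -0.68 for Id1 (95% interval -1.32 to -0.05, FDR 0.158) and -0.80 for Id3 (95% interval -1.49 to -0.12, FDR 0.125), neither called. At E11.5 Id3 was at 221 to 281 CPM and Id1 at 75.0 to 110.2 CPM over the 12 libraries.

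**Figure D3:**
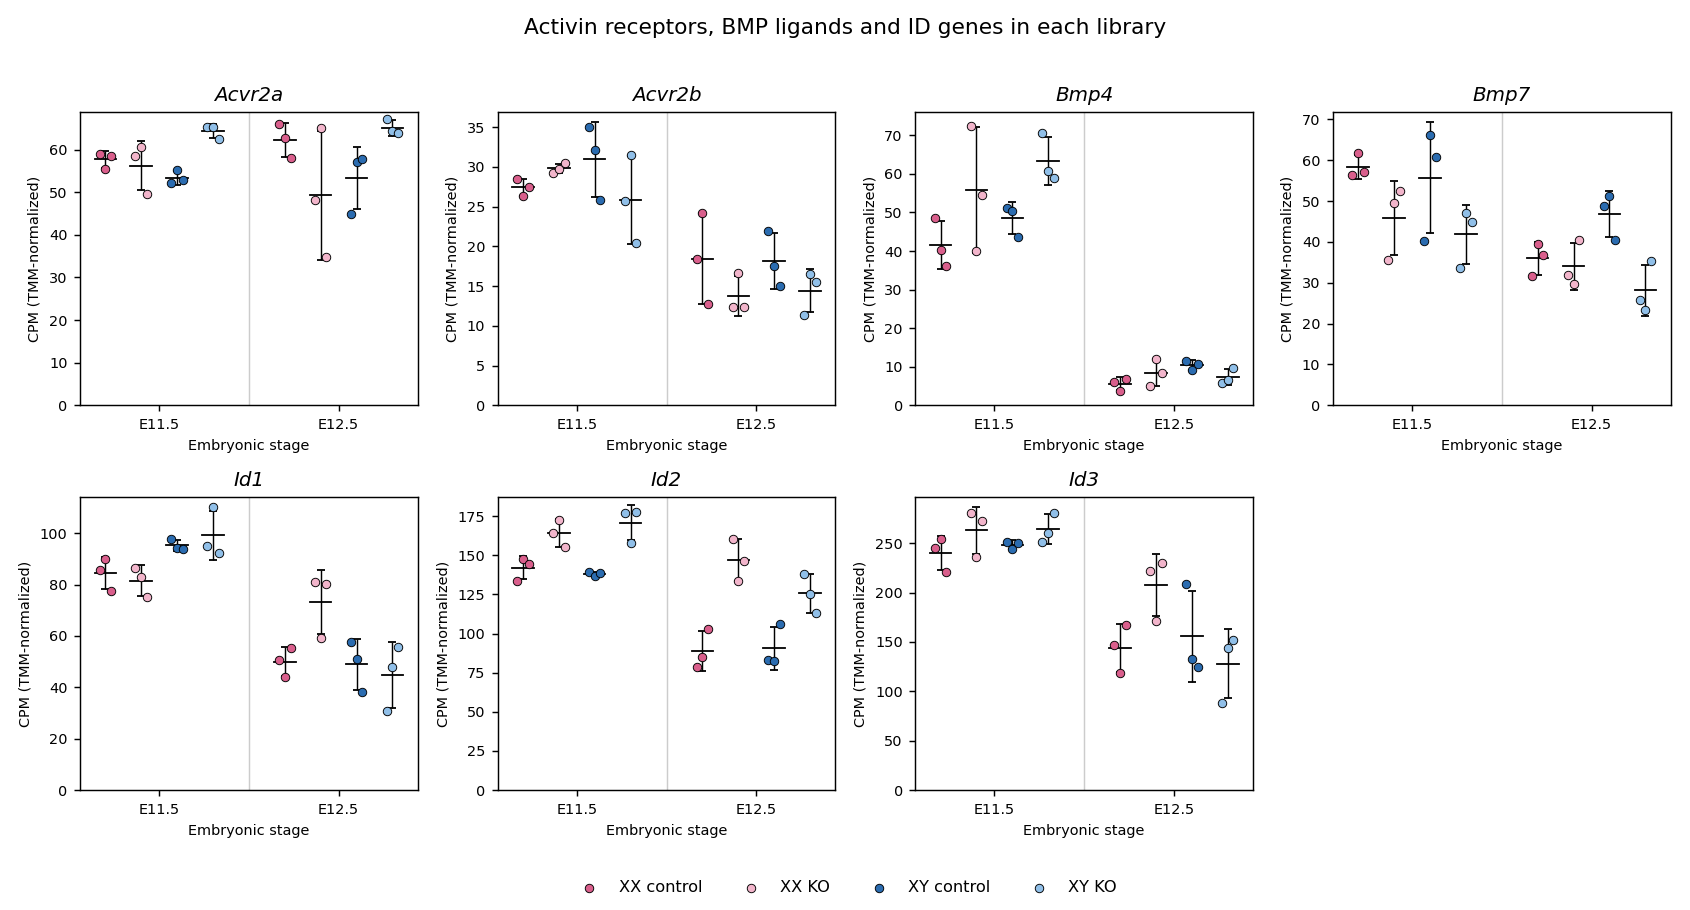
Levels of the activin receptors, BMP ligands and ID genes in every library, in CPM with TMM-normalized library sizes; points are libraries, horizontal lines means and bars SD (n = 3). Id2 is above the controls in KO gonads of both sexes at E12.5, Bmp7 is lowest in E12.5 XY KO gonads, and E12.5 Bmp4 levels are at most 12 CPM.

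**Figure D4:**
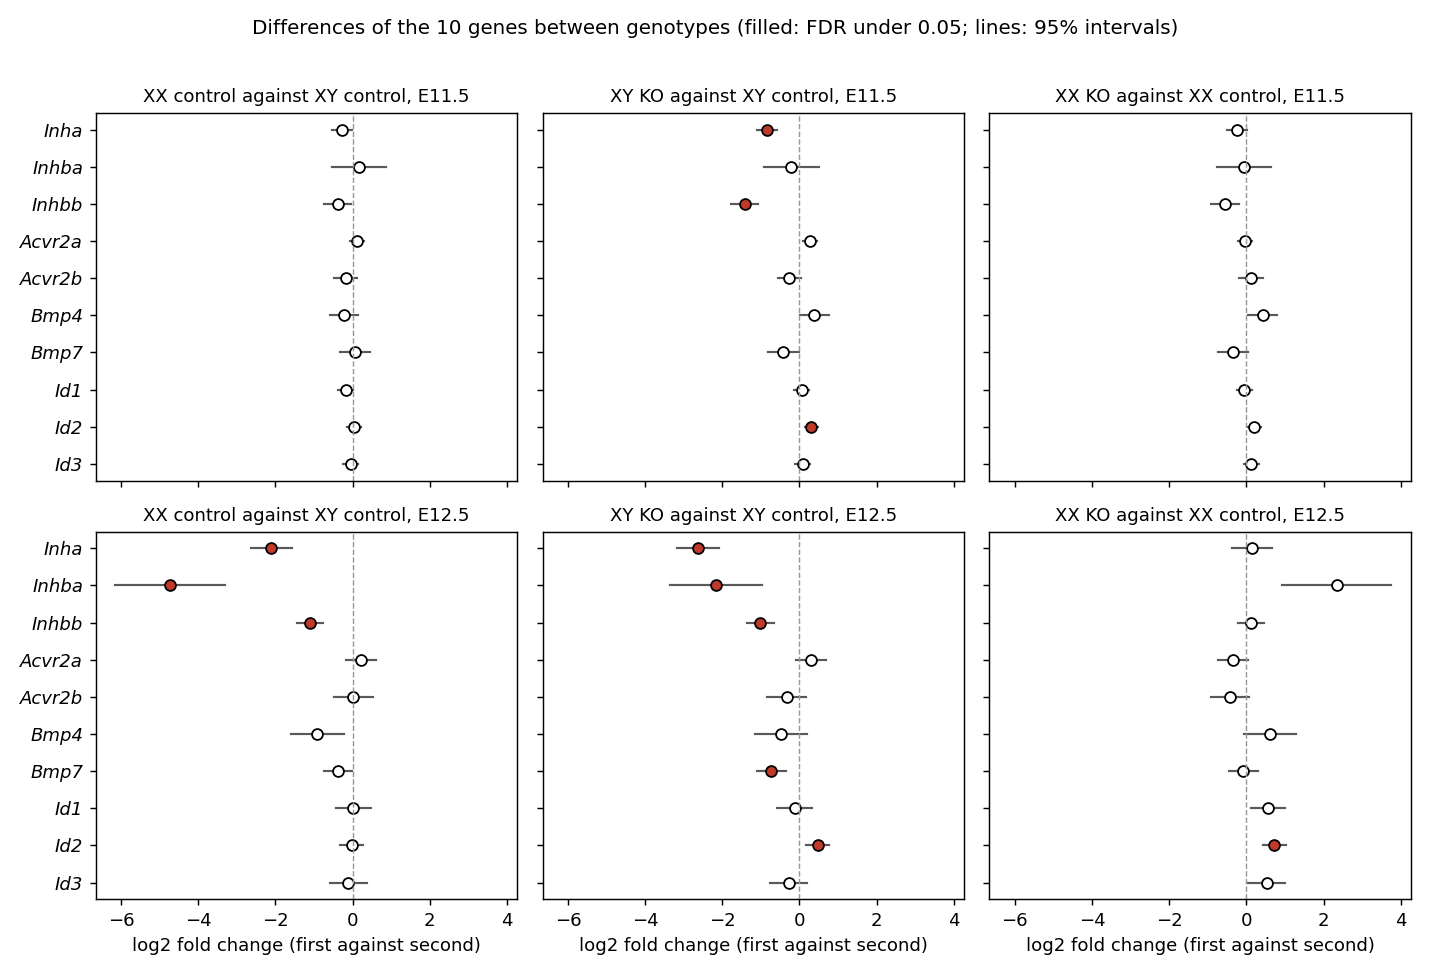
Log2 fold changes of the 10 genes in 3 comparisons at each stage, with 95% intervals as lines and filled points for an FDR under 0.05 over all genes tested (edgeR quasi-likelihood test). The 3 subunits lie left of 0 in both E12.5 comparisons with XY controls, and Id2 lies right of 0 in both E12.5 comparisons of KO with control gonads.

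XX KO and XY KO gonads differed in none of the 10 genes at either stage by edgeR, where 0.0844% (E11.5) and 0.153% (E12.5) of all genes were called. At each stage 4 of the 10 had an unadjusted p under 0.05 and DESeq2 called 0. Over all genes, the 12 called at E11.5 became 202 without XY control replicate 2 and 33 without XX KO replicate 1. Their libraries did not overlap for 4 of the 10 genes at E11.5, against 24.5% of all genes, and for 3 of the 10 at E12.5, against 20.1%. For the chains at E12.5 the XX KO level minus the XY KO level was 0.67 for Inha (95% interval 0.15 to 1.19), -0.23 for Inhba (-1.41 to 0.95) and 0.04 for Inhbb (-0.30 to 0.37) on the log2 scale. The E12.5 result depended on XX KO replicate 2. Without it Inha, Acvr2a, Id1 and Id3 were called, 4 of the 10, with FDRs from 0.0241 to 0.0495, while 1828 genes in all were called in place of 22, which became 13 without replicate 2 of XY KO and 14 without replicate 1 of XX KO.

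XY KO gonads were also compared with XX control gonads. At E11.5 Inha was 1.48-fold lower (log2 fold change -0.57, SE 0.13, FDR 0.0118), Inhbb was 2.06-fold lower (log2 fold change -1.04, SE 0.17, FDR 0.00191) and Bmp4 was 1.53-fold higher in XY KO gonads (log2 fold change 0.61, SE 0.17, FDR 0.0427, edgeR quasi-likelihood test). These are 3 of the 10 genes, against 9.09% of all genes, and libraries did not overlap for 7 of the 10, against 36.9%. The 1293 genes called in all became 544 to 720 on leaving out any XX control or XY KO library, and 1995 on leaving out replicate 2 of XY control. The Inha call was lost without XX control replicate 1 (FDR 0.0692) or XY KO replicate 2 (0.0531). The Bmp4 call was lost without any of XX control replicates 2 and 3, XX KO replicate 3 and XY KO replicates 1, 2 and 3 (0.0512 to 0.16) and without the filter on low counts (0.053). At E12.5 Inhba was called, 5.95-fold higher in XY KO gonads (log2 fold change 2.57, SE 0.67, FDR 0.0418), 1 of the 10 genes against 5.03% of all genes, and libraries did not overlap for 3 of the 10, against 29.5%. The 721 genes called in all became 164 to 373 without XX control replicates 1 or 2 or any XY KO replicate. That call was lost in 11 of 18 alternatives, among them the removal of any XX control or XY KO library, with an FDR of at most 0.136. At the depth of 10 to 17 counts in an XX control library, the 95% interval of this difference ran from 1.14 to 4.01.

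Other genes of the pathway were taken from a list of 63 ligands, receptors, SMADs, antagonists and target genes, of which 62 were tested at E11.5 and 61 at E12.5. With the same test and threshold as above, 2 were higher and 4 lower in XX than in XY controls at E11.5, 10 higher and 5 lower in XY KO than in XY controls, and 0 higher and 3 lower in XX KO than in XX controls, where 0.886%, 12.7% and 3.27% of all genes were called. The median log2 fold changes of the list were 0.08, 0.05 and 0.10, against -0.01, -0.03 and 0.00 over all genes tested. At E12.5 10 were higher and 20 lower in XX than in XY controls, 11 higher and 12 lower in XY KO than in XY controls, and 9 higher and 2 lower in XX KO than in XX controls, where 23.8%, 20.6% and 5.26% of all genes were called. The medians were -0.24, 0.00 and 0.13, against 0.01, -0.01 and 0.00 over all genes tested. Amh, Fst and Bmp2 are also on the lists of Sertoli or pre-granulosa markers. Single genes of this list were not tested again under the alternatives, which were run for the 10 genes. For XX KO against XX control at E12.5 the 755 genes called in all became 35 to 1670 with a library left out.

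Among the other ligands at E12.5, 2 were higher and 5 lower in XX than in XY controls, of 11 tested, where 23.8% of all genes were called and 12.4% were lower. Amh, the hormone with which the testis removes the Müllerian ducts, was at 646 CPM or more in XY control libraries and at 3.19 CPM or less in all others. Its log2 fold change was -10.46 (SE 0.46) in XX controls and -8.63 (SE 0.40) in XY KO gonads. Nodal, a ligand that uses activin receptors, was at 11.6 to 13.5 CPM in XY controls and at 0.813 to 2.63 CPM elsewhere, lower by -2.63 (SE 0.36) and -2.79 (SE 0.36). Bmp2 rose instead, from 9.99 to 13 CPM in XY controls to 56.0 to 78.7 CPM in XX controls (log2 fold change 2.51, SE 0.16) and 44.1 to 59.1 CPM in XY KO gonads (2.16, SE 0.16). In XX KO against XX control gonads 4 of the 11 ligands tested were called higher and 1 lower, where 5.26% of all genes were called. Their log2 fold changes ran from -1.02 to 2.57, with Bmp6 at 1.00 (SE 0.24) and Bmp5 at -1.02 (SE 0.23). The 755 genes called in all in this comparison became 35 without XX control replicate 1.

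Among the antagonists and modulators at E12.5, 1 was higher and 8 lower in XX than in XY controls, of 19 tested, and 3 were higher and 6 lower in XY KO than in XY control gonads (23.8% and 20.6% of all genes were called). Fst encodes follistatin, which binds activins and blocks them. It was at 1.35, 1.17 and 2.00 CPM in XY control libraries and at 118 CPM or more in all 9 others, with log2 fold changes of 7.57 (SE 0.28) in XX controls and 6.77 (SE 0.27) in XY KO gonads. Lefty1 and Lefty2, inhibitors of Nodal, went the other way: Lefty2 was at 97 to 109 CPM in XY controls and at 5.08 CPM or less in the others, and Lefty1 at 30.3 to 39.0 CPM and at 1.91 CPM or less. At E11.5 Fst was 2.02 higher on the log2 scale in XX than in XY controls (SE 0.26). It was lower in XX KO than in XX control gonads (log2 fold change -1.29, SE 0.25). In XY KO against XX control gonads its log2 fold change was -2.04, about as far below XX controls as the XY controls were.

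Of 16 other receptors and co-receptors tested at E12.5, 3 were higher and 6 lower in XX than in XY controls (23.8% of all genes were called). In XY KO against XY control gonads 2 were higher and 2 lower (20.6% of all genes), and in XX KO against XX control gonads 2 higher and 1 lower (5.26%). Bmpr1b, a type I BMP receptor, was higher in XX controls (log2 fold change 1.56, SE 0.26) and in XY KO gonads (1.53, SE 0.26) than in XY controls. Tgfbr3, a co-receptor that helps inhibin to bind, was lower in XX than in XY controls (-1.29, SE 0.13) and higher in XX KO than in XX controls (0.54, SE 0.13). Of the 8 SMADs, 1 was called higher and 1 lower in XY KO than in XY control gonads, where 20.6% of all genes were called. Smad5, which carries BMP signals, was higher (0.88, SE 0.12), and Smad7, an inhibitory SMAD, was lower (-0.56, SE 0.16).

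Of 7 other target genes, 3 were higher and 0 lower in E12.5 XX controls and XY KO gonads than in XY controls, namely Msx1, Msx2 and Gata2 (23.8% and 20.6% of all genes were called). Msx2, a homeobox gene that BMPs induce in many tissues, was at 0.914 to 2.35 CPM in XY controls, 17.2 to 22.2 CPM in XX controls and 6.72 to 9.58 CPM in XY KO libraries. These groups were separate from each other, with log2 fold changes of 3.68 (SE 0.30) and 2.33 (SE 0.30) from XY controls. Between the same controls Id1, Id2 and Id3 were not called, with 95% intervals of -0.42 to 0.47, -0.33 to 0.27 and -0.60 to 0.38 on the log2 scale.

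**Figure D5:**
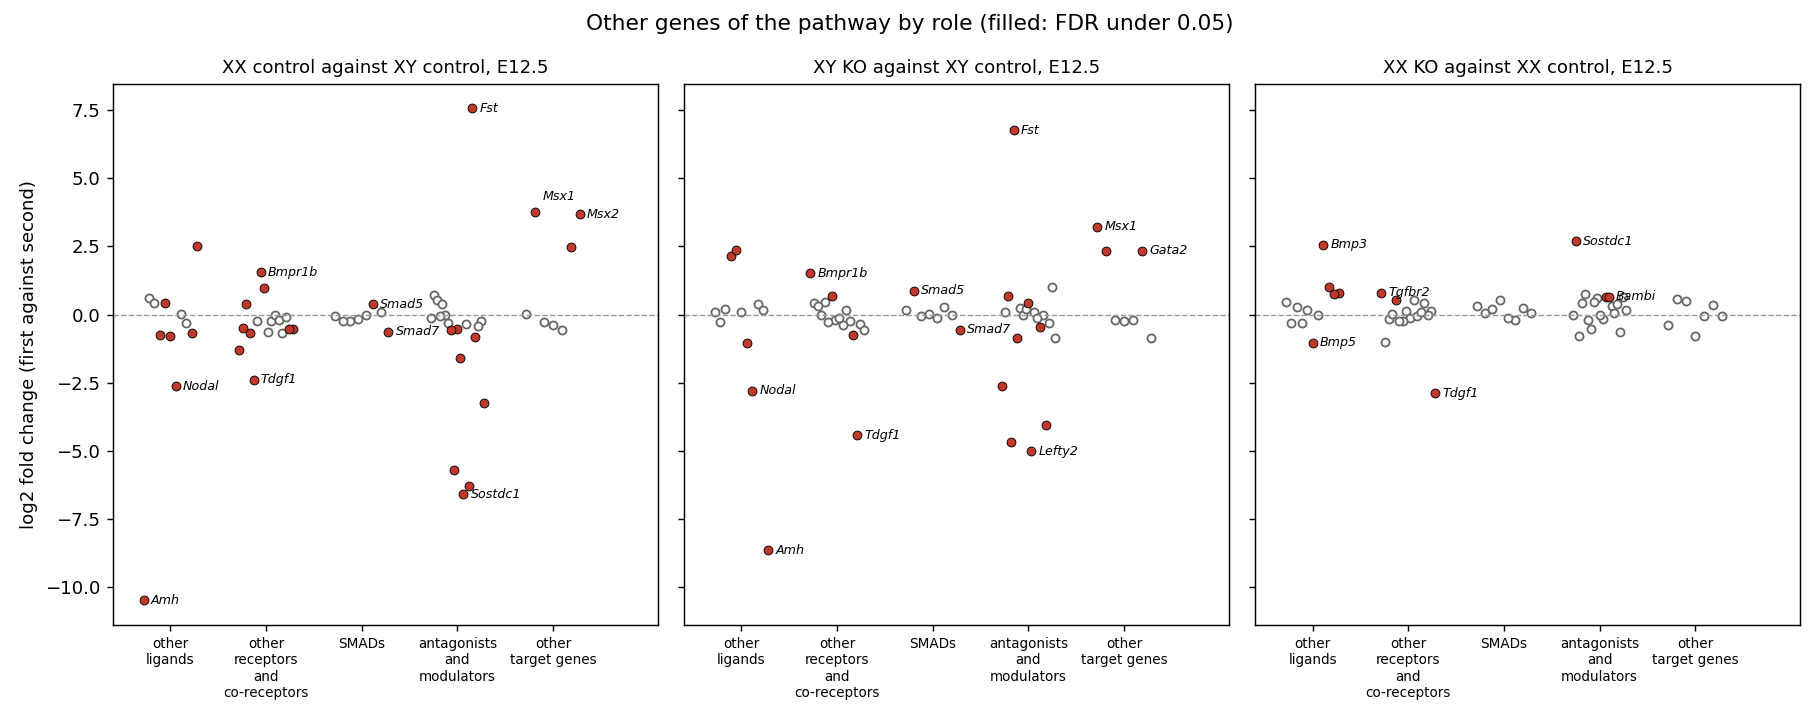
Log2 fold changes of the other pathway genes at E12.5 by role, in 3 comparisons, with filled points for an FDR under 0.05 over all genes tested; up to 2 called genes of each role with the largest changes are named. Fst is the highest and Amh the lowest point in both comparisons with XY controls, and most SMADs lie near 0.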

How the data were processed

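RNA had been taken from gonad-mesonephros complexes (E11.5) and isolated gonads (E12.5). The authors mapped the reads to mm10 (GRCm38) with the align function of subread and counted them per gene with featureCounts; the deposited values are raw counts. Versions, gene annotation and strand setting are not given in the sources used here.

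Groups and replicates came from the sample labels. For each stage, the 12 libraries were fitted in edgeR 4.0.16 (R 4.3.3) with TMM and a mean per genotype, by the quasi-likelihood method (robust and legacy options on). Genes with at least 1 CPM in at least 2 libraries were tested, and those with a Benjamini-Hochberg FDR under 0.05 were called. SE was obtained from the log2 fold change and its F statistic (absolute value over root F). Nearest genes were found by Pearson correlation of log2 CPM (prior count 2). Alternatives were other scalings, DESeq2 1.42.0, no filter, fewer libraries, a replicate block and leaving out each library. The fit was tested on simulated data.

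The members and gene lists were chosen with earlier results of these data known. All 10 members were named in every comparison, and from each pathway list up to 3 called genes with the largest change per comparison could be named. The 12 per-sample columns in the tables of Foxl2 mutants were left out because no tissue is given in their names. Single-cell data were not analysed here.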

Additional observations from a re-analysis of the deposited data

Results flagged for a closer look

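The 3 subunit genes were flagged because the effect of the deletion at E12.5 differed between the sexes in the edgeR test of the interaction. That test called 12.9% of all genes. It shares its control libraries with the comparison of XX and XY controls, where the log2 fold changes were -2.11 for Inha, -4.73 for Inhba and -1.10 for Inhbb. The effect in XY minus that in XX gonads was -2.79 for Inha, -4.50 for Inhba and -1.13 for Inhbb on the log2 scale. All 3 were called in each of the 17 alternatives run for this test. For Inhba the 3 XX KO libraries ranged from 0.493 to 6.54 CPM, which widens its 95% interval to -6.34 to -2.65. Its value also holds an XX difference of 2.34 that was not called, from XX controls at 10 to 17 counts.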

How the results depend on the processing

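Of 19 called differences of the 10 genes, all kept their sign and 12 kept their call in every alternative. The number of the 10 genes called moved by over 1.5 times in 25 of 214 repeats. DESeq2 called 1 for XX KO against XX control and 1 for the interaction at E11.5 (0 each in edgeR), and 2 for XX KO against XX control and 2 for XY KO against XX control at E12.5 (1 each). Fitting only the compared libraries gave 5 for XY KO against XX control at E11.5 and 2 at E12.5, and leaving out the filter gave 0 at E12.5. With a library left out the counts ranged from 0 to 2 for XX KO against XX control at both stages, from 1 to 4 and from 0 to 2 for XY KO against XX control at E11.5 and E12.5, from 3 to 5 for XY KO against XY control at E12.5 and from 0 to 4 for XX KO against XY KO at E12.5. The causes were not tested. Replicate numbers did not pair the libraries: same-numbered libraries had correlations of -0.201 to 0.349 at E11.5 and -0.38 to 0.286 at E12.5, and the own number was the best match in 14 of 36 and 9 of 36 cases (a library against another genotype). With a replicate block 18 of the 19 calls held, Bmp7 at E11.5 was also called for XY KO against XY control (FDR 0.0387) and against XX control (0.0188), and the count for XY KO against XX control at E12.5 fell from 1 to 0. Depth limits Inhba most, at 10 to 17 counts in E12.5 XX controls.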
